A study of Mus musculus with 6 samples.

Results

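The genes described are 10 genes of natural killer (NK) cells, Klra2, Klrb1c, Klrd1, Klrk1, Ncr1, Gzma, Gzmb, Prf1, Nkg7 and Eomes, out of 21780 genes counted. They were chosen by name, as receptors, killing proteins and a transcription factor of NK cells, with the measured differences between the 2 groups known, so their own values are given as a description with no p-value. Which of them met the threshold for a call is stated in 1 place, and nothing is read from it. All 10 passed the filter on low counts, as did 14429 protein-coding genes in all. The question put to them was whether Klra2 moved with the other 9 genes or apart from them.

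C57BL/6 mice of both sexes, 6 to 8 weeks old, were injected once into the peritoneum, with PBS in the control group and with 1 mg of WGP in the treated group. On day 7 the pancreas was dissociated, CD45+CD11b+ cells were sorted from it, and their polyA RNA was sequenced in 3 libraries per group. WGP are whole glucan particles, hollow yeast shells made largely of β-glucan. By the study's description each library came from a different mouse, all within 1 experiment, and the sex behind each library is not given in the sources used here. CD11b, the integrin used for the sort, is found on myeloid cells and also on mature NK cells, so the gate could hold both.

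NK cells are lymphocytes that kill infected or transformed cells without prior sensitization. Inhibitory receptors, among them most of the Ly49 family encoded by the Klra genes in the mouse, read MHC class I on the target, whereas activating receptors such as NKG2D and NKp46 read signs of stress or infection. When activation prevails, granules that hold perforin and granzymes are released onto the target. Klra2 encodes Ly49B, a member of the family that is known chiefly from myeloid cells, unlike the Ly49 receptors of NK cells.

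By level, Klra2 stood apart from the other 9 genes. It was higher in every WGP library than in any PBS library, by 5.89-fold, whereas 8 of the other 9 genes had a log2 fold change below 0, and Klrk1 was the exception. Without PBS replicate 1 those of Klrb1c, Klrd1 and Prf1 also lay above 0, at 0.12, 0.04 and 0.12. Gzma and Gzmb were lower in every WGP library than in any PBS library. The remaining 6 genes, Klrb1c, Klrd1, Ncr1, Prf1, Nkg7 and Eomes, overlapped between the groups.

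Of the 10 genes, 4 lie in the NK gene complex on mouse chromosome 6 (GRCm38). Klra2 (ENSMUSG00000030187) spans 131219223 to 131247362 on the minus strand. Klrb1c lies at 128778485 to 128789215, Klrd1 at 129591782 to 129598775 and Klrk1 at 129610323 to 129623864 of the same chromosome. The other 6 lie elsewhere, Ncr1 and Nkg7 on chromosome 7, Eomes on chromosome 9, Prf1 on chromosome 10, Gzma on chromosome 13 and Gzmb on chromosome 14.

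The promoters of 4 of the genes are shown because they stand for the patterns found, Klra2 and Klrk1 as the genes higher in WGP, and Ncr1 and Gzmb as an NK receptor and a granzyme with lower means. Each is the RefSeq window from 250 bases before to 50 bases after the gene's start (build GRCm38.p6), written 5′ to 3′ on the gene's strand. Capitals mark letters that match one of the motifs named after them. Ncr1 has 2 windows in RefSeq, of which the first is shown, and Klrd1 has no entry.
Klra2 chr6:131247313-131247612 (minus strand): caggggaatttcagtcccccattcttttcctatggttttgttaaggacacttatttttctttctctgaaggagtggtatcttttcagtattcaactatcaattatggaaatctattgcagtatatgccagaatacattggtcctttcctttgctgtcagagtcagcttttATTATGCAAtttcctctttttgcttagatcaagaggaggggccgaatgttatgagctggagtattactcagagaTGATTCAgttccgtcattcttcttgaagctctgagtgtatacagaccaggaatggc
Klrk1 chr6:129623815-129624114 (minus strand): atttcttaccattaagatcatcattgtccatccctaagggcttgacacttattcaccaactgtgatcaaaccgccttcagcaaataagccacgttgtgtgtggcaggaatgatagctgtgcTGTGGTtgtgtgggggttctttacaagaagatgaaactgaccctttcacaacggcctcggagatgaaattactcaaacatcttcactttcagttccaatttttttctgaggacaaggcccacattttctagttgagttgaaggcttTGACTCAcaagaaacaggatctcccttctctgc
Ncr1 chr7:4337465-4337764 (plus strand): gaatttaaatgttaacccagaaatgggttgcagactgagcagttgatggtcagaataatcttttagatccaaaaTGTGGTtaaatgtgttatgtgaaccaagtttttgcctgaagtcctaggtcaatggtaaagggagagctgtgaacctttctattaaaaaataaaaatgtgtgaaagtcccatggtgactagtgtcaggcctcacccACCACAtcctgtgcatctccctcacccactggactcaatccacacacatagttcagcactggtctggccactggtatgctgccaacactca
Gzmb chr14:56262285-56262584 (minus strand): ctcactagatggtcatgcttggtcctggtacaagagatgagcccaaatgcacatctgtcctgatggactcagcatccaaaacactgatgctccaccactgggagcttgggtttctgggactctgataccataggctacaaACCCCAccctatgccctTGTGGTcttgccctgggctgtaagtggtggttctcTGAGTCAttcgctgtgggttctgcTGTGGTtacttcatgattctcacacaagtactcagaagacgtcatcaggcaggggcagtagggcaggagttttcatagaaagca

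The letters searched, on both strands, were those of a T-box factor (GGTGTGA), a RUNX factor (TGNGGT), a PU.1-type ETS factor (GAGGAAG), a C/EBP factor (TTGCNNAAT) and AP-1 (TGANTCA, which reads the same on the other strand). No match in the printed windows overlapped another. The RUNX letters were in 7 of the 9 windows searched, among them those of Klrk1, Ncr1 and Gzmb and not that of Klra2, and in 45.6% of the windows of 27025 genes. The C/EBP letters were in the window of Klra2 alone among the 9, and in 2.42% of all windows. AP-1 letters were in the windows of Klra2, Klrk1 and Gzmb, so they did not separate the genes higher in WGP from those lower, and in 7.93% of all windows. The PU.1-type letters were in the windows of Klrb1c and Prf1 (13.5% of all), and the T-box letters in that of Nkg7 (3.96% of all). A match is a description of the letters, not evidence that a factor binds there.

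Library totals ranged from 35334645 to 40580936 counts in PBS and from 38240913 to 43341834 in WGP. Levels are given as TMM-scaled counts scaled to library size (CPM). The genes of the gate were present in all libraries, with Ptprc (CD45) at 949 to 1043 CPM in PBS and 1536 to 1747 CPM in WGP, and Itgam (CD11b) at 189 CPM or more in every library. The PBS libraries were unlike one another. PBS replicate 1 had 0 counts of 4 Y-linked genes, as did WGP replicates 1 and 2, and WGP replicate 3 had 1, against 8972 and 10063 in PBS replicates 2 and 3. Y-linked counts thus went largely with the group. In comparisons of all 6 libraries, differences that go with sex and differences that go with WGP cannot be told apart. PBS replicate 1 also had the highest summed level of 8 B cell markers, 2578 CPM against 661 and 384 CPM in PBS replicates 2 and 3 and 93.5 to 179 CPM in WGP. Across all genes tested, edgeR's quasi-likelihood test called 653 (4.53%) higher and 716 (4.96%) lower in WGP. A call needed a fold of 2 or more in either direction and an adjusted p no greater than 0.05.

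Klra2 was at 51.1, 47.5 and 48.9 CPM in the PBS libraries and at 289, 292 and 288 CPM in the WGP libraries. The libraries of a group lay close together and the groups were far apart. The means were 49.2 ± 1.83 and 289 ± 1.92 CPM (SD, n = 3 each), a log2 fold change of 2.56 ± 0.14 (standard error). The coefficient of variation between the PBS libraries was 3.72%, and 4.10% of the 8607 genes with a PBS mean of at least 10 CPM had a smaller one. Between the WGP libraries it was 0.662%, and 0.109% of 8287 such genes had a smaller one. Counting error alone at its mean count was 2.27% in PBS and 0.932% in WGP, so the WGP value lay below counting error. The closeness of the 3 WGP values is therefore not read as a trait of Klra2. The median gene varied by 17.0% in PBS and 13.8% in WGP.

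**Figure D1:**
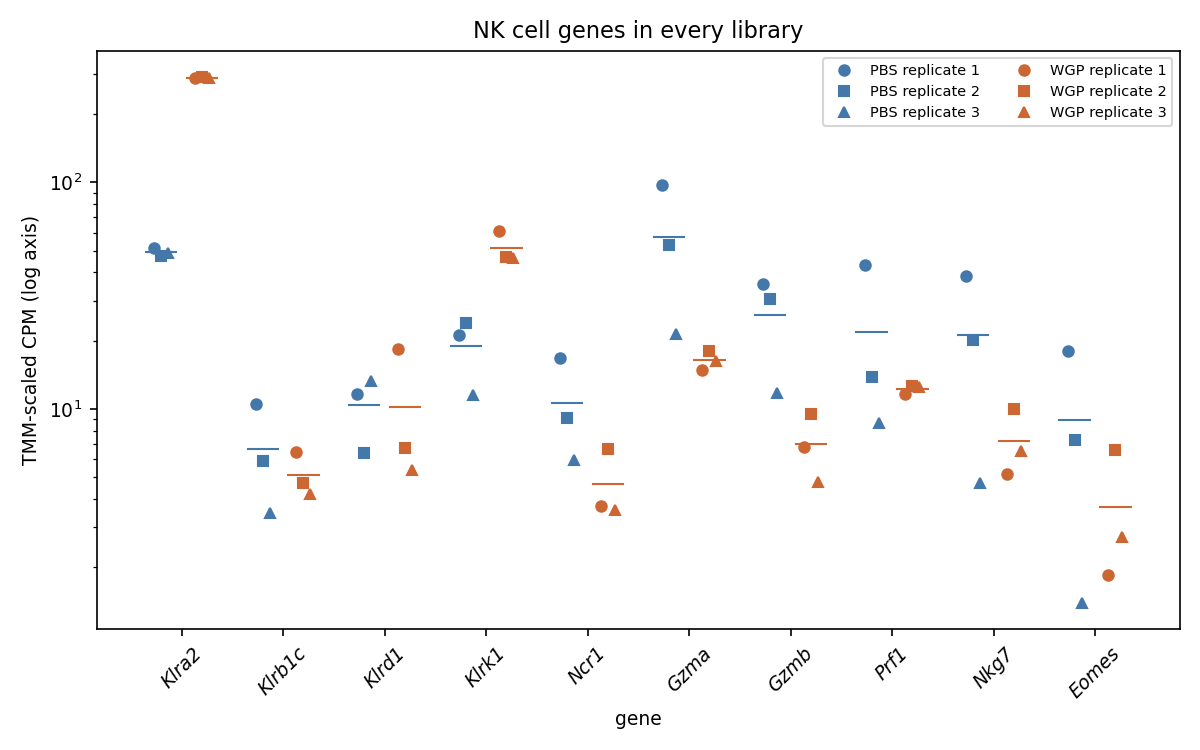
TMM-scaled CPM (log axis) of the 10 NK cell genes in every library. Blue symbols are PBS and orange symbols WGP libraries, the symbol shape is the replicate, and lines are group means. Klra2 lies at 47.5 to 51.1 CPM in PBS and 288 to 292 CPM in WGP, while the PBS points of most other genes spread widely.

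Among the other receptors, Klrk1, which encodes the activating receptor NKG2D, was at 21.2, 24.0 and 11.5 CPM in PBS and at 60.8, 46.9 and 46.2 CPM in WGP. It was the only one of the other 9 genes with all WGP libraries above all PBS libraries, with a log2 fold change of 1.44 ± 0.28. Ncr1, which encodes NKp46, an activating receptor used to mark NK cells, was at 16.8, 9.09 and 5.94 CPM in PBS and at 3.72, 6.66 and 3.57 CPM in WGP. WGP replicate 2 lay above PBS replicate 3, so the groups overlapped, with a log2 fold change of -1.19 ± 0.52.

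Klrb1c encodes NK1.1, the antigen by which NK cells are sorted in C57BL/6 mice, and was at 10.6, 5.90 and 3.47 CPM in PBS and at 6.43, 4.73 and 4.20 CPM in WGP. All WGP values lay inside the PBS range. Of its 75-base windows, the length of the reads, 86.8% were found in no other gene's GENCODE vM21 transcript, and Klrb1a, Klrb1b and the overlapping Gm44511 hold the rest, so its counts are uncertain. Klrd1, which encodes CD94, the partner of the NKG2 receptors, was at 11.7, 6.39 and 13.2 CPM in PBS and at 18.3, 6.73 and 5.40 CPM in WGP. Its group means were nearly equal, with a log2 fold change of -0.04 ± 0.51, and WGP replicate 1 held its highest value. Without that library the log2 fold change was -0.78. With any other library left out it ranged from -0.30 (without PBS replicate 2) to 0.26 (without WGP replicate 3), so its sign was not settled.

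Gzma and Gzmb encode granzymes, the proteases that enter the target cell. Gzma was at 97.8, 53.2 and 21.4 CPM in PBS and at 14.8, 18.0 and 16.3 CPM in WGP, a log2 fold change of -1.81 ± 0.44. Gzmb was at 35.4, 30.4 and 11.7 CPM in PBS and at 6.78, 9.45 and 4.77 CPM in WGP, a log2 fold change of -1.88 ± 0.44. For both genes PBS replicate 3 was the lowest PBS library and still lay above all WGP libraries, by a small margin for both. Without PBS replicate 1 the log2 fold change of Gzma was -1.19 and that of Gzmb -1.59.

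Prf1 encodes perforin, which opens the target membrane, and was at 43.1, 13.8 and 8.65 CPM in PBS and at 11.6, 12.6 and 12.5 CPM in WGP. The mean of PBS was raised by PBS replicate 1, and the log2 fold change of -0.83 ± 0.51 was 0.12 without that library. Nkg7, a granule membrane protein, was at 38.6, 20.2 and 4.72 CPM in PBS and at 5.16, 9.96 and 6.52 CPM in WGP, a log2 fold change of -1.55 ± 0.62. All WGP libraries lay above PBS replicate 3 and below the other PBS libraries. Eomes, a T-box transcription factor of NK cells, was at 18.1, 7.29 and 1.39 CPM in PBS and at 1.85, 6.56 and 2.71 CPM in WGP, a log2 fold change of -1.26 ± 0.84. PBS replicate 3 was its lowest library of all. Without PBS replicate 1 the log2 fold changes of Nkg7, Eomes and Ncr1 were -0.79, -0.23 and -0.69, and without WGP replicate 2 that of Eomes was -1.97.

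In all, 2 of the 10 genes were called higher (Klra2 and Klrk1), beside 4.53% of all genes tested, and 2 were called lower (Gzma and Gzmb), beside 4.96%. The same genes were those whose groups did not overlap, 2 with all WGP libraries above all PBS libraries, beside 16.0% of all genes, and 2 with all below, beside 16.1%. Since the genes were selected on this comparison, nothing is read from these counts. Gzma and Gzmb were not called with limma-voom or when PBS replicate 2, WGP replicate 1 or WGP replicate 3 was left out. With Y-linked counts as a covariate Klrk1 was not called and Prf1 and Nkg7 were called lower, and Nkg7 was also called lower without PBS replicate 3. In bulk RNA, a smaller share of NK cells in the sort and less RNA of these genes per cell cannot be told apart.

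Per library, the log2 CPM of Klra2 minus the median of the other 9 genes was 1.27, 1.78 and 2.49 in PBS and 5.40, 4.94 and 5.72 in WGP. The groups did not overlap in this difference. The log2 fold change of Klra2 exceeded the median of the other 9, which was -1.19 (range -1.88 to 1.44), by 3.75, and by 2.81 without PBS replicate 1.

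Within the PBS group most of the other 9 genes were spread widely, and Klra2 was not. PBS replicate 1 was the highest PBS library for 7 of the 9, as it was by a small margin for Klra2, and PBS replicate 3 the lowest for 8 of the 9, Klrd1 being the exception. The ratio of the highest to the lowest PBS library ranged from 2.07 (Klrd1) to 13.0 (Eomes), against 1.08 for Klra2. Eomes had 57 counts in PBS replicate 3, where the most frequent low count was 27, so its ratio is uncertain. Klra2 had at least 1850 counts in each PBS library. The part of counting error in the spread of the other genes was not tested. In the WGP group, WGP replicate 2 was the highest for 6 of the 9. The ratio there ranged from 1.09 (Prf1) to 3.55 (Eomes), against 1.01 for Klra2.

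**Figure D2:**
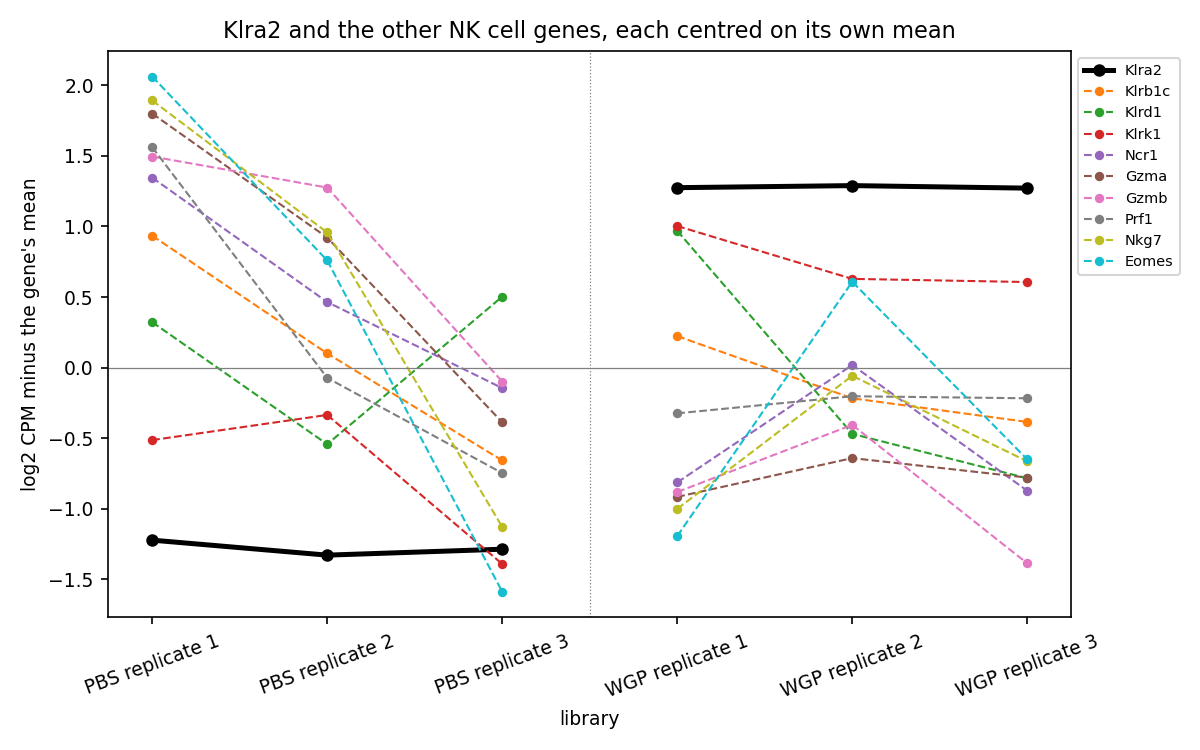
log2 CPM of each of the 10 genes minus its own mean over the 6 libraries. The black line is Klra2, the dashed lines the other 9 genes, and lines join the libraries of a group only to guide the eye. Klra2 is flat within each group and higher in WGP, whereas most of the others are highest in PBS replicate 1 and lowest in PBS replicate 3 within PBS.

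The summed levels of other cell types differed between the same libraries. The 8 B cell markers followed the order of the NK genes in PBS, with 2578, 661 and 384 CPM and 93.5 to 179 CPM in WGP, and 7 of 8 were called lower. The 7 neutrophil markers stood at 3900, 2068 and 1266 CPM in PBS and at 1920 to 1979 CPM in WGP, with 0 of 7 called by edgeR, 1 above 0 and 6 below in log2 fold change, and 1 higher and 2 lower at an unadjusted p under 0.05. The 16 T cell markers summed to 57.2 to 98.5 CPM in PBS and 27.2 to 90.4 CPM in WGP, with WGP replicate 2 the highest WGP library and Cd8a, at 0 counts in PBS and 61, 122 and 61 in WGP, the one of 15 tested that was called. Of the 15, 9 had a log2 fold change above 0 and 6 below, and at an unadjusted p under 0.05 there were 2 higher and 3 lower. Their defining gene Cd3e had 0, 3 and 28 counts in PBS and 49, 343 and 73 in WGP, and Trat1 was at 0 in all libraries. T cells also use Gzmb, Prf1, Nkg7 and Klrk1. The part of these cells in the levels of the NK genes was not tested.

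The sums of other marker lists differed between the groups as well. The 6 Ly6C-high monocyte markers summed to 699 to 1147 CPM in PBS and 3157 to 3561 CPM in WGP, with 4 of 6 called higher, and the 7 resident macrophage markers to 4003 to 10356 and 540 to 811 CPM, with 7 of 7 called lower. The 7 myeloid genes that check the gate summed to 9707 to 15764 CPM in PBS and 22202 to 23508 CPM in WGP. Of these, 4 had a log2 fold change above 0 and 3 below, and only Lyz2, the lysozyme of myeloid cells, was called, with a log2 fold change of 1.21 ± 0.21 (SE, edgeR adjusted p = 0.00351). The 6 plasmacytoid dendritic cell markers summed to 395 to 428 CPM in PBS and 206 to 225 CPM in WGP, with 3 of 6 above 0 and 3 below in log2 fold change and 2 called lower, Tcf4 and Siglech. The 5 acinar markers summed to 881 to 3652 and 243 to 428 CPM, with 5 of 5 called lower. The part of these cells in the level of Klra2 was not tested.

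Per length of exon (RPKM), the order of the genes was not the same in the 2 groups. In PBS it was Gzma (mean 57.1), Klra2 (25.9), Nkg7 (23.2), Gzmb (18.0), Prf1 (8.45), Klrd1 (8.15), Ncr1 (6.89), Klrk1 (2.64), Klrb1c (2.24) and Eomes (2.14). Of the 9 pairs of neighbours in this order only Ncr1 and Klrk1 had ranges that did not overlap. In WGP, Klra2 led with 152 RPKM, followed by Gzma at 16.3, and the ranges of these did not overlap. Below them stood Klrd1 (7.92), Nkg7 (7.89), Klrk1 (7.14), Gzmb (4.88), Prf1 (4.74), Ncr1 (3.02), Klrb1c (1.73) and Eomes (0.892). Beyond Klra2 and Gzma, the neighbours whose WGP ranges did not overlap were Gzma and Klrd1, Prf1 and Ncr1, and Ncr1 and Klrb1c.

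The genes whose pattern over the 6 libraries was most like that of Klra2 were not NK genes. By the root mean square difference of centred log2 CPM among 12399 genes, the nearest were Spp1 (0.086), which encodes osteopontin, a secreted protein of macrophages, 1600014C10Rik (0.093), Tpi1 (0.103), which encodes a glycolytic enzyme, Slc16a10 (0.130), which encodes an amino acid transporter, and Csf2rb2 (0.134), which encodes a receptor chain for IL-3. Of the other 9 NK genes Klrk1 was the nearest to Klra2, at rank 326, and the other 8 were at ranks 7609 to 10664. The genes nearest to Ncr1 were Foxo1, Cks1b, Cep170b, Mmp8 and Ppm1l, with differences of 0.192 to 0.251. Gzma was at rank 128 from Ncr1, Gzmb at 198, Prf1 at 348, Nkg7 at 467, Klrb1c at 772 and Eomes at 2919, whereas Klrd1 was at 7773, Klrk1 at 10069 and Klra2 at 11050. The likeness is a description over 6 libraries that share their groups.

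The Ly49 family showed Klra2 apart from its relatives too. The table holds 11 Klra genes, all on the minus strand of chromosome 6, and Klra2 lies away from the others, which stand between 129831154 and 130386874. Klra2 took 52.8%, 61.4% and 76.2% of the family's counts in the PBS libraries and 98.6%, 93.5% and 97.5% in the WGP libraries. The other 10 genes together stood at 45.7, 29.9 and 15.2 CPM in PBS and at 4.02, 20.2 and 7.48 CPM in WGP. As for the NK genes, PBS replicate 1 was the highest PBS library and WGP replicate 2 the highest WGP library, and the groups overlapped.

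**Figure D3:**
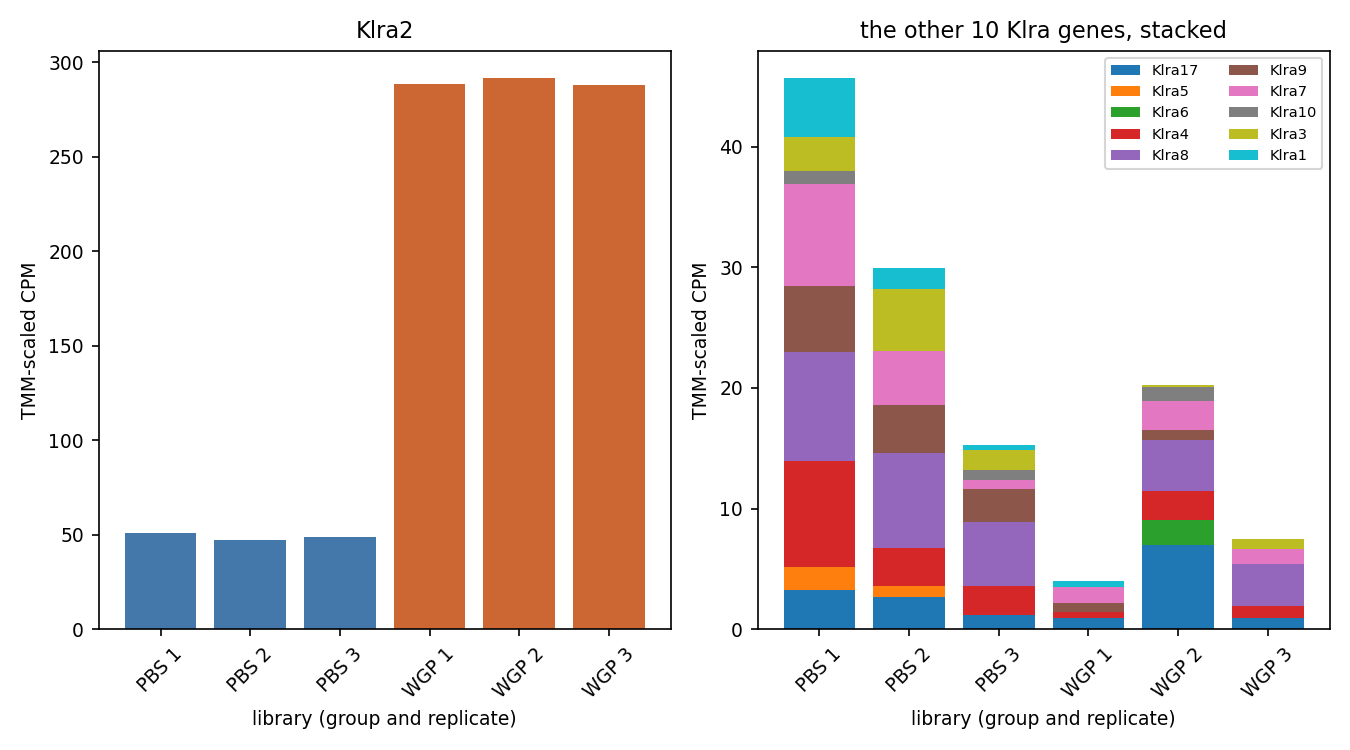
TMM-scaled CPM of Klra2 (left) and of the other 10 Klra genes stacked (right, on its own axis) in each library, with no error bars since each bar is 1 library. Klra2 is at 288 CPM or more in WGP, while the other 10 sum to 45.7 CPM at most.

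Of the other 10 Klra genes edgeR called 0 higher and 0 lower in WGP, as did DESeq2 and limma-voom, and 0 had an unadjusted p under 0.05 in edgeR. Their median log2 fold change was -1.70, against -0.05 over all genes tested. For 4 of them, Klra3, Klra4, Klra8 and Klra9, all WGP libraries lay below all PBS libraries, beside 16.1% of all genes. Klra8, which encodes Ly49H, an activating receptor for a viral ligand, was at 9.08, 7.83 and 5.33 CPM in PBS and at 0, 4.22 and 3.49 CPM in WGP, with an edgeR adjusted p of 0.458. Klra4, which encodes Ly49D, another activating receptor, was at 8.72, 3.18 and 2.42 CPM in PBS and at 0.543, 2.39 and 0.977 CPM in WGP. Klra9, which encodes Ly49I, was at 2.71 to 5.44 CPM in PBS and at 0.760, 0.820 and 0 CPM in WGP. Klra3, which encodes the inhibitory receptor Ly49C, was at 2.78, 5.11 and 1.64 CPM in PBS and at 0, 0.0965 and 0.831 CPM in WGP.

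The other 6 overlapped or were at 0 in most libraries. Klra7, which encodes Ly49G, an inhibitory receptor, was at 0.733 to 8.48 CPM in PBS and at 1.20 to 2.44 CPM in WGP, and Klra1, which encodes Ly49A, at 0.367 to 4.87 CPM in PBS and 0 to 0.543 CPM in WGP. Klra17, which encodes Ly49Q, a receptor of plasmacytoid dendritic cells and some myeloid cells, was at 1.17 to 3.30 CPM in PBS and at 0.923, 6.99 and 0.977 CPM in WGP. Klra5 had 110 counts in PBS, in 2 libraries, and 0 in WGP, which is at least 37.0-fold lower at a floor of 3 counts over the group. Klra6 had 86 counts in WGP replicate 2 alone, and Klra10 had 78 in PBS and 49 in WGP.

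Counting limits these low values. Low counts clumped, with the most frequent low count of a library between 18 and 41, and at a floor of 93 counts, 3 times the highest of these in WGP, Klra5 was at least 1.19-fold lower. The share of 75-base windows found in no other gene was 100% for Klra2 and for all other members but Klrb1c, and 80.3% for Klra8, 85.6% for Klra10, 87.9% for Klra9, 93.6% for Klra3 and 94.3% for Klra7, so the counts of those 5 Klra genes are uncertain.

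Other receptors and adaptors of NK cells numbered 36 tested, of which 4 rose in WGP, beside 4.53% of all genes tested, with a median log2 fold change of -0.07, against -0.05 over all genes. Called lower were 0, with edgeR, DESeq2 and limma-voom alike, and 0 with a log2 fold change below 0 had an unadjusted p under 0.05 in edgeR. The 4 that rose are also used by myeloid cells or other lymphocytes. Il2rg, the shared chain of the receptors for IL-2 and IL-15, went from a mean of 129 to 434 CPM (log2 fold change 1.75 ± 0.20, edgeR adjusted p = 0.000272). Klrb1b, a relative of Klrb1c that encodes an inhibitory receptor for Clec2d, was at 15.1, 8.32 and 7.45 CPM in PBS and at 44.3, 38.3 and 34.5 CPM in WGP (1.93 ± 0.30, edgeR adjusted p = 0.00180), and 75.5% of its windows were found in no other gene. Slamf7, a self-binding receptor of NK cells and macrophages, rose by 1.26 ± 0.19 (edgeR adjusted p = 0.00149), and Il12rb1, a chain of the IL-12 receptor, by 3.17 ± 0.65 (edgeR adjusted p = 0.00801). Il12rb1 was at 5.88, 3.75 and 0.684 CPM in PBS and at 18.2, 40.9 and 33.5 CPM in WGP, and without PBS replicate 1 its log2 fold change was 3.80. The 32 others were not called.

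Granule and effector genes, other than Gzma, Gzmb, Prf1 and Nkg7 described above, numbered 22 tested. Of these, 4 rose and 1 fell, beside 4.53% and 4.96% of all genes. Their median log2 fold change was 0.51, against -0.05 over all genes. None of the 4 that rose encodes a granzyme. Rab27a and Stx11 take part in the docking and fusion of granules, and rose by 1.63 ± 0.25 (edgeR adjusted p = 0.00161) and 1.17 ± 0.25 (adjusted p = 0.00915), the latter not called without PBS replicate 3 (0.96). Serpinb9, an inhibitor of granzyme B, was at 15.6, 11.5 and 13.7 CPM in PBS and at 48.3, 63.3 and 52.5 CPM in WGP (2.01 ± 0.21, edgeR adjusted p = 0.000176). Gzmb itself was lower in the same libraries. Ccl5, a chemokine of T cells, NK cells and macrophages, rose by 2.59 ± 0.41 (edgeR adjusted p = 0.00198), and Ccl4, a chemokine of the same family, fell by 1.43 ± 0.14 on the log2 scale (edgeR adjusted p = 0.000113).

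Transcription factors of NK and related cells, other than Eomes, numbered 13, of which 2 rose and 2 fell, beside 4.53% and 4.96% of all genes, with a median log2 fold change of -0.05, as over all genes. Nfil3, a factor needed for NK cell development and also induced in macrophages, rose by 1.41 ± 0.30 (edgeR adjusted p = 0.00970), and Prdm1, which encodes Blimp-1, by 1.08 ± 0.26 (adjusted p = 0.0193). Zbtb16, which encodes PLZF of innate lymphoid lineages, fell by 2.01 ± 0.42 (edgeR adjusted p = 0.00842), and Ikzf3, a factor of B cells and other lymphocytes, by 1.99 ± 0.56 (adjusted p = 0.0405). Zbtb16 was at 21.5, 21.9 and 58.0 CPM in PBS and at 10.9, 6.92 and 7.26 CPM in WGP, and its log2 fold change was -1.37 without PBS replicate 3 (adjusted p = 0.0307). Ikzf3 was at 173, 50.8 and 34.3 CPM in PBS, the order of the B cell markers, and without PBS replicate 1 its log2 fold change was -0.98 (adjusted p = 0.125). Prdm1 was not called when PBS replicate 2 or 3, or WGP replicate 1, was left out (adjusted p = 0.0753, 0.0554 and 0.0905). Without WGP replicate 1 or WGP replicate 3, Ikzf3 had adjusted p = 0.137 and 0.14.

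Ligands of NK receptors and signals that recruit or feed NK cells numbered 28 tested, of which 10 rose and 2 fell, beside 4.53% and 4.96% of all genes, with a median log2 fold change of 0.74, against -0.05 over all genes. MHC class I genes were among them, a class that includes the ligands of inhibitory Ly49 and CD94-NKG2 receptors. H2-K1, a classical class I heavy chain, went from a mean of 1458 to 3399 CPM (1.22 ± 0.16, edgeR adjusted p = 0.000623), and H2-T23, which encodes Qa-1, the class I molecule that CD94 with NKG2A reads, from 201 to 516 CPM (1.36 ± 0.14, adjusted p = 0.000142). H2-T22 and H2-Q7 rose by 1.70 ± 0.15 and 1.92 ± 0.31 (edgeR adjusted p = 5.91e-05 and 0.00238). Clec2d, the ligand of the receptor that Klrb1b encodes, rose by 1.14 ± 0.15 (edgeR adjusted p = 0.000668), so the receptor and its ligand were both higher. Nectin2, which CD226 reads, rose by 1.81 ± 0.45 (edgeR adjusted p = 0.0220), and was not called when PBS replicate 2 or 3, or WGP replicate 2, was left out (adjusted p = 0.0852, 0.0606 and 0.0827).

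The chemokines that draw NK cells and T cells through the receptor CXCR3 had the greatest log2 fold changes among the genes of the list that were called. Cxcl9 was at 12.7, 22.1 and 7.48 CPM in PBS and at 712, 1717 and 922 CPM in WGP (6.31 ± 0.49, edgeR adjusted p = 2.65e-05). Cxcl10 went from 44.4 to 74.3 CPM in PBS to a mean of 486 CPM in WGP (3.02 ± 0.32, edgeR adjusted p = 0.000184). Il15ra, which presents IL-15 to NK cells, rose by 2.36 ± 0.30 (edgeR adjusted p = 0.000537). These genes were higher in the WGP libraries, in which Gzma and Gzmb were lower, and a link between them was not tested.

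The 2 genes of the list that fell encode receptors of mature NK cells, and were named after their values were seen. S1pr5, a receptor for sphingosine 1-phosphate that NK cells use to leave tissue, was at 12.9, 18.0 and 4.79 CPM in PBS and at 2.99, 3.26 and 2.91 CPM in WGP (-1.97 ± 0.54, edgeR adjusted p = 0.0346). Cx3cr1, the fractalkine receptor, which is also abundant on monocytes and macrophages, was at 278, 388 and 314 CPM in PBS and at 205, 81.1 and 181 CPM in WGP (-1.07 ± 0.30, adjusted p = 0.0367). With any 1 library left out, the list had 0 or 1 gene called lower. The resident macrophage markers were lower in WGP too, but within WGP their sum was highest in WGP replicate 2 (811 CPM), where Cx3cr1 was lowest. Their part in the level of Cx3cr1 was not tested.

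**Figure D4:**
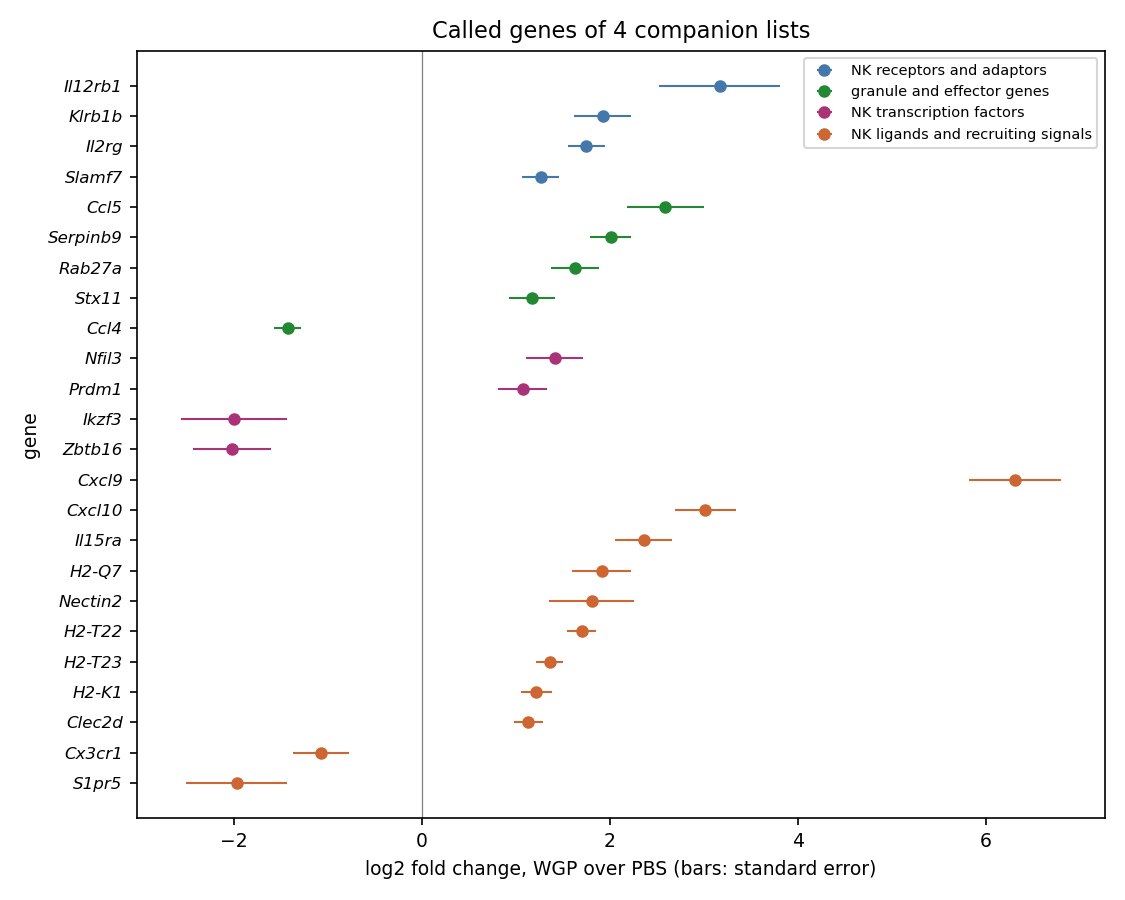
log2 fold change of WGP over PBS (points) with its standard error (bars) for genes of the 4 lists called by edgeR, with 1 gene of the ligand list not drawn. Colors mark the lists, and Cxcl9 has the greatest value of those drawn, at 6.31 ± 0.49.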

How the data were processed

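The authors aligned single-end reads of 75 bases to the mm10 mouse genome (GRCm38.p6) with STAR 2.6, counted them per gene with HTSeq 0.10.0 and deposited the raw counts without normalization. The strand setting, annotation release and handling of duplicates are not given in the sources used here. Symbols, biotypes and exon lengths came from GENCODE vM21. Of 21780 genes 21700 were protein-coding, and the 14429 with at least 10 RLE-normalized counts over the 6 libraries were tested. WGP was compared with PBS by the quasi-likelihood test of edgeR 4.0.16 (R 4.3.3) after TMM scaling. Calls required a p of 0.05 or less after Benjamini-Hochberg adjustment over all genes tested, and an absolute log2 change of 1 or more. Standard errors were obtained from the F statistic. Alternatives used DESeq2 1.42.0, limma 3.58.1 (voom), other scaling and filters, a replicate block, a covariate for Y-linked counts and each library left out.

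The genes and lists were chosen with earlier results of these data known. Named were the 10 genes, every Klra gene with at least 10 counts, the called genes of each list (at most the 10 with the smallest p), defining markers and the 5 genes most like Klra2 and Ncr1 with a mean of at least 0.5 CPM (log2 with a prior count of 2). Trat1, Cd8a, Tcf4, Siglech, S1pr5 and Cx3cr1 were named after their values were seen. RPKM are CPM per kilobase of exon. Floors cover counting error only. The values of 2 genes of these lists are not reported here.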

Additional observations from a re-analysis of the deposited data

How the results depend on the processing

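The log2 fold change of Klra2 lay between 2.45 (library totals only) and 2.58 under the 14 refits, and that of Klrk1 between 1.18 and 1.65. Library totals in place of TMM moved the median log2 fold change of all genes from -0.05 to -0.16. Klra2 exceeded the median of the other 9 genes by 2.81 to 4.09 with 1 library left out, and by 4.35 with Y-linked counts as a covariate, a fit that sets WGP against PBS replicate 1 alone. Without PBS replicate 1 the log2 fold change of Klrb1c was 0.12, of Prf1 0.12, of Gzma -1.19, of Nkg7 -0.79 and of Eomes -0.23. With the Y-linked covariate they were -1.04, -1.81, -2.58, -2.42 and -2.28 in the same order, and that of Ncr1 was -1.85.

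With 1 library left out, transcription factors called higher numbered 1 to 3 and lower 1 to 3, ligands and recruiting signals called lower 0 to 1, granule and effector genes called lower 1 to 2, and receptors and adaptors called lower 0 to 1. Transcription factors called higher were 1 with library totals only and 0 with the Y-linked covariate, and those called lower 1 with filterByExpr and with limma-voom. Ligands and recruiting signals called lower were 1 with filterByExpr, with limma-voom and with the replicate block, and 0 with the Y-linked covariate. Granule and effector genes called lower were 2 with DESeq2 and with no fold threshold, and genes called higher were 1088 with no fold threshold. The cause was not tested.

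The replicate numbers did not pair the libraries, since deviations of same-numbered libraries correlated at -0.002, -0.081 and 0.031 over 12400 genes. The replicate block gave 1341 called genes in place of 1369. Counts of called genes ranged from 1146 (without PBS replicate 2) to 1705 (DESeq2), besides 2071 with no fold threshold. With the Y-linked covariate Il12rb1, Stx11, Zbtb16, Nfil3, Prdm1 and Nectin2 were not called.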
